A study of Oryctolagus cuniculus with 10 samples.

Results

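In 84 of 13429 genes, each of 3 fetal rabbit lungs with an occluded trachea stood at least 2-fold above all 7 other lungs sequenced. The members were chosen by their measured levels: the lowest value of CPM + 0.5 over these 3 libraries had to be at least 2 times the highest value over the other 7. CPM is the count of a gene scaled to a library total of 1000000. The 3 libraries are occlusion 1 and hernia with occlusion 1 and 3, and they were singled out because they stood high, not by a label. Occlusion 2 and hernia with occlusion 2 carry the same operation labels and are among the 7 lower libraries. The difference between the 3 and the 7 is therefore a description and has no test.

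The study sequenced RNA of the lateral left upper lobe of New Zealand rabbit fetuses, collected at E30.5 (embryonic day). It compared 3 control libraries, 2 of fetuses with a left diaphragmatic hernia made at day 25, 2 with tracheal occlusion at day 27, and 3 with the hernia followed by occlusion. Sham surgery of controls, litters and the number of fetuses behind a library are not stated in the labels. Titles share the stem M83 between control 2 and hernia with occlusion 1, and the stem M88 between occlusion 2 and hernia with occlusion 3. The hernia libraries have the stems M38 and M39, apart from the M83 to M98 of all others, and stem and hernia alone cannot be told apart.

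A diaphragmatic hernia lets abdominal organs into the chest, where they compress the growing lung. The fetal lung secretes liquid that leaves through the trachea, and an occluded trachea retains it, which distends the lung and is known to drive its growth. This is the basis of fetal tracheal occlusion as a treatment. The table names genes by Ensembl identifier only, and none of the 84 identifiers is paired with a symbol in the reference used here. The members are given by identifier, without position or function, and neither cell type markers nor pathway lists could be applied. In whole tissue, more cells of a type and more RNA of a gene per cell cannot be told apart.

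Library totals ran from 16.4 to 22.2 M counts, and the 3 high libraries, at 19.8, 19.3 and 18.9 M, lie inside that range. Genes listed at 0 numbered 18 to 35 per library, and 26, 19 and 35 in the 3 high libraries. All 84 members passed the filter on low counts (at least 1 CPM in at least 2 libraries), as did 13379 genes in all. No member was at 0 in any library. The lowest count of a member was 9, in control 2, and the lowest in any of the 3 high libraries was 67. Replicates differed far beyond sampling noise in all groups, most between occlusion 1 and 2 (chi-square per degree of freedom 102, against 13.8 to 56.8 in the other 7 pairs within a group).

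The members were mostly genes of modest abundance. Their mean over the 10 libraries ran from 1.88 to 282 CPM with a median of 14.9 CPM, where the median of all genes tested was 25.8 CPM. Only 4 members averaged above 100 CPM, and 12 averaged below 5 CPM. The ratio used by the rule had a median of 2.28 and a highest value of 3.39. Just inside the threshold lay ENSOCUG00000028221, at 7.21 CPM in the lowest of the 3 and 3.36 CPM in the highest of the 7, and ENSOCUG00000002703, at 39.1 and 19.3 CPM. Just outside lay ENSOCUG00000010708, at 52.0 and 25.9 CPM (ratio 1.99), and ENSOCUG00000017125, at 7.99 and 3.78 CPM (ratio 1.98). There were 14 members with a ratio from 2 to 2.1 and 19 genes from 1.9 to 2, so the edge of the list falls within a continuous range. The mirrored rule, with the lowest of the 7 at least 2 times the highest of the 3, found 1 gene. This gene, ENSOCUG00000005825, named after its values were seen, stood at 1.36, 3.01 and 2.07 CPM in the 3 libraries, at 7.24 CPM in hernia with occlusion 2, and between 10.3 and 27.1 CPM in the other 6.

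Summed over members, the level was 1121, 936 and 1257 CPM in controls, 1583 and 1290 CPM with a hernia, 4799 and 1012 CPM with occlusion, and 5307, 1543 and 4514 CPM with both. By the rule, each of the occluded groups holds libraries on both sides of a gap. The lowest of the 3 high sums was 2.85 times the highest of the 7 others, and 2.67 times without the 5 most abundant members. The rule required at least 2-fold in every member, so a gap in the sums and raised levels in the 3 libraries follow from the choice. Against the mean of the controls, members stood at a median of 2.12, 2.18 and 2.02 on the log2 scale in occlusion 1 and hernia with occlusion 1 and 3. The corresponding median was -0.14 in occlusion 2 and 0.58 in hernia with occlusion 2. Over all genes tested it lay between -0.02 and 0.06 in every library.

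**Figure D1:**
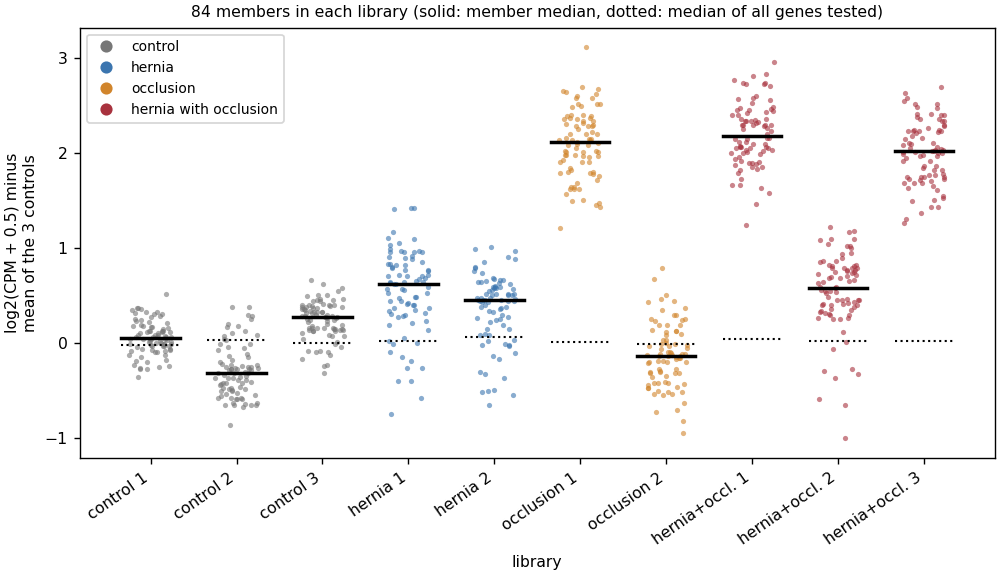
Each point is 1 of the 84 members in 1 library, as log2(CPM + 0.5) minus the mean of the 3 controls. Solid bars are the medians of the members and dotted bars those of all genes tested. Medians are 2.12, 2.18 and 2.02 in the 3 libraries the rule names and between -0.32 and 0.62 in the other 7.

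The 5 members with the largest ratios were the 5 with a ratio of at least 3, and each had nearly the same level in the 3 high libraries. The ratio uses the lowest of the 3, so ranking by it favours near-equal levels there. ENSOCUG00000009932 stood at 18.7 CPM in occlusion 1 and at 17.1 and 17.8 CPM in hernia with occlusion 1 and 3. Its other values were 3.92, 2.46 and 4.16 CPM in controls, 4.33 and 3.42 CPM with a hernia, 2.33 CPM in occlusion 2 and 4.70 CPM in hernia with occlusion 2. The 3 high values lie within 2 CPM of each other, and occlusion 2 was the lowest of all 10 libraries. ENSOCUG00000009484 stood at 30.9, 31.9 and 30.3 CPM in the same 3 libraries, against 6.63, 3.91 and 8.55 CPM in controls, 8.73 and 8.50 CPM with a hernia, 4.42 CPM in occlusion 2 and 8.53 CPM in hernia with occlusion 2. Here control 2 and occlusion 2 were the low pair, and the other 5 lower libraries lay between 6.63 and 8.73 CPM.

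ENSOCUG00000014733 reached 74.8, 67.2 and 71.0 CPM in occlusion 1 and hernia with occlusion 1 and 3. It was at 14.3, 7.43 and 15.9 CPM in controls, 18.6 and 16.4 CPM with a hernia, 7.04 CPM in occlusion 2 and 21.0 CPM in hernia with occlusion 2. The level in occlusion 2 was thus below that of every control, and that in hernia with occlusion 2 above every control. ENSOCUG00000006050 stood at 14.3, 14.8 and 13.8 CPM in the 3 libraries, against 3.09, 2.76 and 4.16 CPM in controls, 3.42 and 3.69 CPM with a hernia, 1.81 CPM in occlusion 2 and 4.03 CPM in hernia with occlusion 2. ENSOCUG00000016706 stood at 77.9, 80.5 and 77.7 CPM, against 15.4, 8.88 and 17.95 CPM in controls, 24.5 and 18.9 CPM with a hernia, 10.9 CPM in occlusion 2 and 25.5 CPM in hernia with occlusion 2. For ENSOCUG00000016706 the hernia libraries and hernia with occlusion 2 all lay above every control, while for ENSOCUG00000006050 control 3 was the highest of the 7.

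The 5 most abundant members were less uniform. ENSOCUG00000003792 stood at 160, 165 and 137 CPM in controls, 204 and 109 CPM with a hernia, 579 and 136 CPM with occlusion, and 612, 126 and 592 CPM with both. It supplied between 8.2% and 17.6% of the summed level of the members, depending on the library, and showed no common order among the 7 lower libraries: hernia 1 was the highest of the 7 and hernia 2 the lowest. ENSOCUG00000005133 stood at 87.2, 58.6 and 82.3 CPM in controls, 128 and 106 CPM with a hernia, 374 and 80.9 CPM with occlusion, and 416, 130.0 and 354 CPM with both. ENSOCUG00000002814 stood at 57.2, 34.2 and 70.6 CPM in controls, 92.2 and 67.1 CPM with a hernia, 264 and 42.7 CPM with occlusion, and 275, 91.7 and 255 CPM with both. In both genes control 2 was the lowest of the controls and hernia 1 and hernia with occlusion 2 were the highest of the 7, at nearly the same level.

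ENSOCUG00000002835 spread more among the 3 high libraries, at 272 CPM in occlusion 1 and 474 and 304 CPM in hernia with occlusion 1 and 3. Its 7 other values lay between 55.7 and 103 CPM, with hernia with occlusion 2 the highest. ENSOCUG00000017424 spread the most of these 5, at 247, 188 and 134 CPM in the 3 libraries. It was at 26.8, 23.1 and 35.6 CPM in controls, 16.4 and 22.2 CPM with a hernia, 48.7 CPM in occlusion 2 and 13.7 CPM in hernia with occlusion 2. For this gene occlusion 2 was the highest of the 7 lower libraries and hernia with occlusion 2 the lowest, whereas for ENSOCUG00000016706 hernia with occlusion 2 was the highest.

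**Figure D2:**
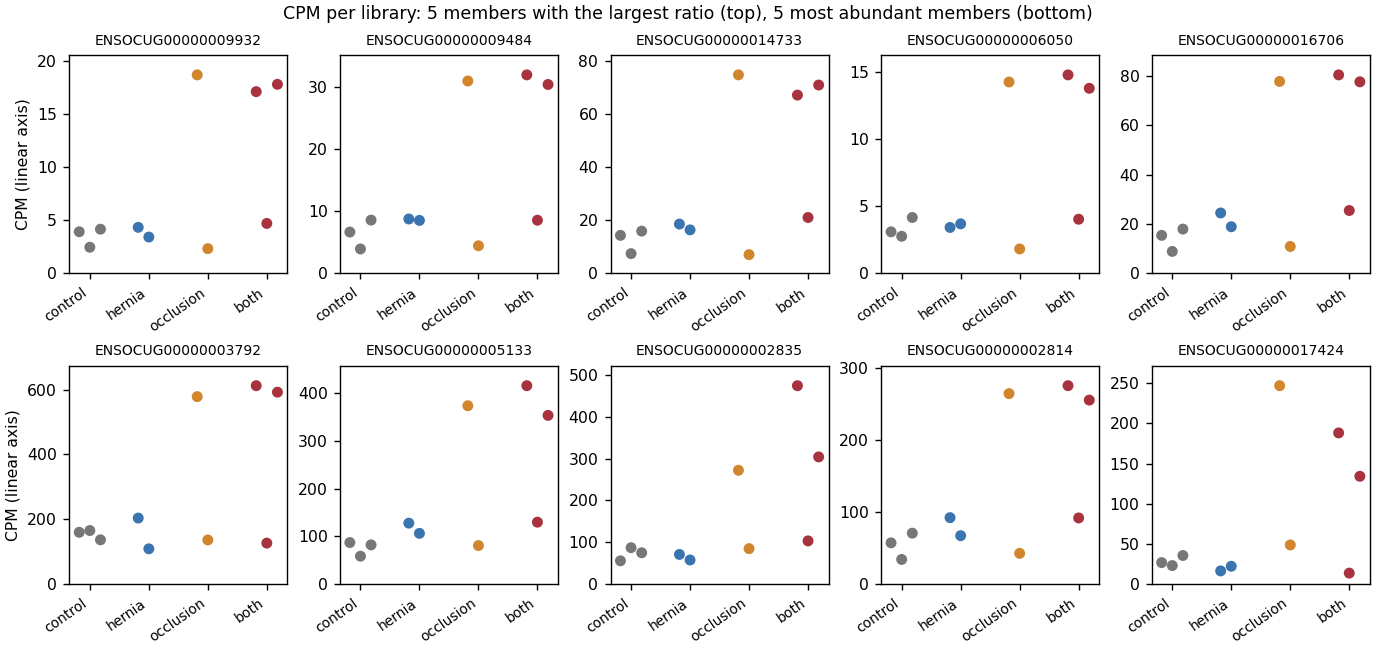
CPM in each library on a linear axis, grouped by operation ("both" is hernia with occlusion), for the 5 members with the largest ratio (top row) and the 5 with the highest mean CPM (bottom row). Each point is 1 library; in each panel 1 of the 2 occlusion points and 1 of the 3 hernia with occlusion points lie among the controls and hernia libraries or near them.

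Among the 3 high libraries the members differed little, which the rule favours because it uses the lowest of the 3. The highest of the 3 was a median 1.2-fold above the lowest (range 1.02 to 1.84), near the median of 1.21-fold over all genes tested. Over the 7 lower libraries the same fold was a median 2.18 in the members and 1.52 in all genes tested. Hernia with occlusion 1 was the highest of the 3 in 56 members, occlusion 1 in 22 and hernia with occlusion 3 in 6, whereas over all genes tested these libraries were highest in 38.4%, 29.3% and 32.3%. Libraries that share a title stem lay on opposite sides of the gap. Hernia with occlusion 1 stood a median 5.74-fold above control 2 (both M83) over the members, with a range of 2.07 to 11.4. Hernia with occlusion 3 stood a median 4.33-fold above occlusion 2 (both M88), with a range of 2.28 to 9.48. Over all genes tested these medians were 1.005 and 1.013. The rule placed hernia with occlusion 1 and 3 above control 2 and occlusion 2 in every member. The sides of the gap and the least size of these folds therefore follow from the choice. Nothing is read from their contrast with all genes tested.

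The rule used only the highest of the 7 lower libraries, and so did not fix which library that was. Hernia 1 was the highest of the 7 in 38 members (45.2%, against 18% of all genes tested) and hernia with occlusion 2 in 29 (34.5%, against 18.9%). Occlusion 2 was the highest in 2 members (2.4%, against 10.7%), and control 1 in none (against 7.3%). At the other end, control 2 was the lowest of the 7 in 52 members (61.9%, against 9.38% of all genes tested) and occlusion 2 in 18 (21.4%, against 15.4%). The 2 occluded libraries outside the high set thus lay apart from each other. Hernia with occlusion 2 was above every control in 63 members and below every control in 7, and occlusion 2 was above in 11 and below in 21. As a share of members, hernia with occlusion 2 was above in 75% and below in 8.33%, against 31.3% and 27.4% of all genes tested. Occlusion 2 was above in 13.1% and below in 25%, against 27.1% and 31.1%, both under the shares of all genes tested. Members share libraries and vary together, so these counts are not independent observations.

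**Figure D3:**
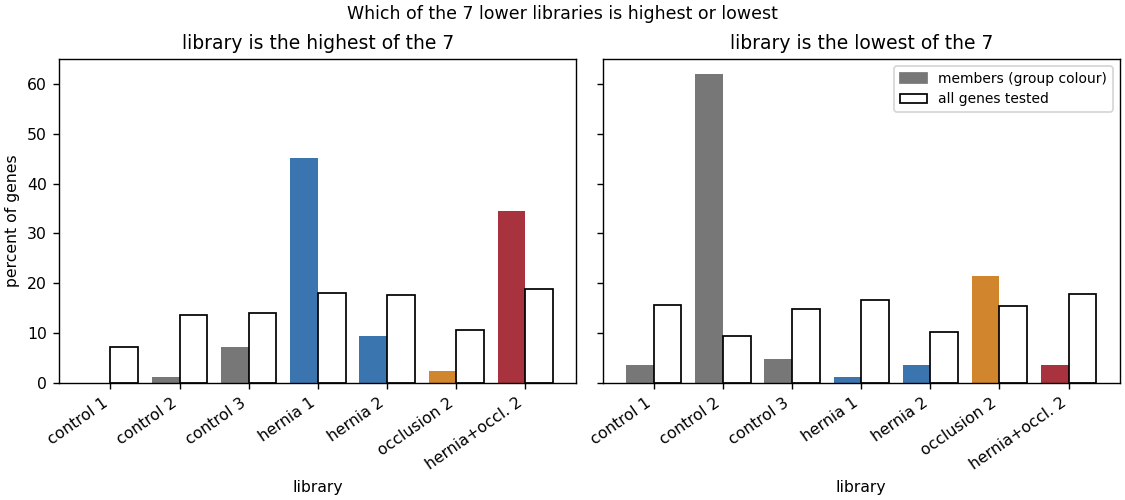
Percent of the 84 members (filled bars, coloured by group) and of all genes tested (open bars) in which each of the 7 lower libraries is the highest (left) or the lowest (right) of the 7. Hernia 1 and hernia with occlusion 2 are the highest in 45.2% and 34.5% of members, and control 2 is the lowest in 61.9%.

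Of the 7 lower libraries, 3 came from lungs with a hernia (hernia 1 and 2, hernia with occlusion 2) and 4 from lungs without. In 38 members (45.2%) all 3 lay above all 4, where this held for 5.76% of all genes tested. All 3 lay below all 4 in 4 members (4.8%, against 2.86% of all genes tested). These 4, named after their values were seen, were ENSOCUG00000017424, ENSOCUG00000000881, ENSOCUG00000004841 and ENSOCUG00000011042. The count of 38 became 58 without control 3 (69% of members, against 7.92% of all genes tested). Without any other single library of the 7 it lay between 38 and 49, against 6.37% to 14.3% of all genes tested. The share of all genes tested was highest, at 14.3%, without hernia with occlusion 2, where the count was 42. Such a count can only stay or rise when a library is left out, so 38 is its lowest possible value there. The count was made after the data were seen and has no test.

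Hernia against control addresses the effect of a hernia without occlusion. The 3 high libraries are in neither group, but in the fit of all 10 libraries they enter the estimate of spread. The rule selected genes with a wide gap inside both occluded groups, so the members' standard errors in that fit were made large by the selection (median 0.67 on the log2 scale, against 0.29 in a fit of the 3 controls and 2 hernia libraries alone). Over all genes tested these medians were 0.20 and 0.16. Nothing is therefore read from the lack of calls in the fit of all libraries. There, edgeR's quasi-likelihood test called 0 members in either direction (adjusted p from 0.522 to 0.999), where 0.00747% of all genes tested were called higher and 0% lower. Unadjusted p under 0.05 was reached by 0 members, against 4.76% higher and 5.99% lower, and DESeq2, which also used all 10 libraries, called 0, against 0.382% and 0.726%.

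In the fit of the control and hernia libraries alone, 83 of the members passed the filter and 25 (30.1%) had an unadjusted p under 0.05 with a higher level in hernia lungs, against 6.93% of all genes tested. In the other direction there were 2 (2.41%), against 8.26%; one of them is ENSOCUG00000004841 and the other is ENSOCUG00000017424, both named after their values were seen. None passed the correction (edgeR adjusted p from 0.144 to 0.993). The median log2 change over the members was 0.49 in either fit, and 0.01 over all genes tested in the fit of all libraries. There, 73 of 84 members had a higher fitted level with a hernia, against 51.2% of all genes tested. Both hernia libraries lay above all 3 controls in 43 members, against 20.7% of all genes tested, and below in 5, against 14.5%. The 5 lower ones, named after their values were seen, were ENSOCUG00000017424, ENSOCUG00000000881, ENSOCUG00000004841, ENSOCUG00000011042 and ENSOCUG00000022631. Members vary together, so these counts are not independent observations.

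The largest such change was that of ENSOCUG00000006396, singled out after its values were seen. It stood at 1.71, 1.05 and 1.43 CPM in controls and 4.52 and 3.01 CPM with a hernia, without overlap. The fitted log2 change was 1.39 ± 0.36 (SE) in the fit of these groups alone (edgeR adjusted p = 0.201) and 1.39 ± 0.74 in that of all libraries (0.522), whose error the selection widened. It was at 1.65 CPM in occlusion 2, among the controls, at 3.26 CPM in hernia with occlusion 2, between the hernia libraries, and at 10.3, 12.04 and 10.8 CPM in the 3 high libraries. The most negative was ENSOCUG00000004841, at 24.0, 24.7 and 28.4 CPM in controls and 17.0 and 16.1 CPM with a hernia. Fitting these groups alone gave a log2 change of -0.67 ± 0.14 (SE; edgeR adjusted p = 0.144), and fitting all libraries gave -0.67 ± 0.66 (0.732). It was at 23.5 CPM in occlusion 2 and at 16.9 CPM in hernia with occlusion 2, so the hernia libraries again lay on one side, here the lower.

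Members resembled each other over the 7 lower libraries. The mean profile of log2(CPM + 0.5) over members, centred on the 7, was -0.13, -0.48 and 0.05 in the controls, 0.35 and 0.17 in the hernia libraries, -0.31 in occlusion 2 and 0.35 in hernia with occlusion 2. Pearson's r over these 7 libraries between pairs of members had a median of 0.67 (quartiles 0.25 and 0.87, 3486 pairs). A member correlated with the mean of the others at a median r of 0.91. There were 43 members at r of at least 0.9, 33 between 0 and 0.9, and 8 below 0. All points come from the same 7 libraries and share their depth and composition, so these values describe the libraries.

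The 43 members at r of at least 0.9 stood, relative to the control mean, at a median of 0.77 and 0.51 (log2) in the hernia libraries, 0.73 in hernia with occlusion 2, -0.19 in occlusion 2 and -0.47 in control 2. In the 3 high libraries they stood at 2.25, 2.30 and 2.11. The profile that chose them is itself higher in the hernia libraries than in controls, so their sign with a hernia was fixed by the choice. ENSOCUG00000016706 (r = 0.99) and ENSOCUG00000002814 (r = 0.98) are among them. The 8 members below 0 stood at -0.33 and -0.35 in the hernia libraries, -0.32 in hernia with occlusion 2 and 0.05 in occlusion 2, a sign that the choice likewise favours. In the 3 high libraries they stood at 1.82, 1.998 and 1.78. They also spread more among the 3, with a median of 1.51-fold from lowest to highest against 1.18-fold in the 43. Hernia with occlusion 1 was the highest of the 3 in 6 of the 8 and in 30 of the 43, so this does not set the 8 apart. ENSOCUG00000003792 (r = -0.10), ENSOCUG00000002835 (r = -0.07) and ENSOCUG00000017424 (r = -0.65), all among the 5 most abundant members, belong to these 8. The limits of 0.9 and 0 were set after the data were seen, and neither set was tested.

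**Figure D4:**
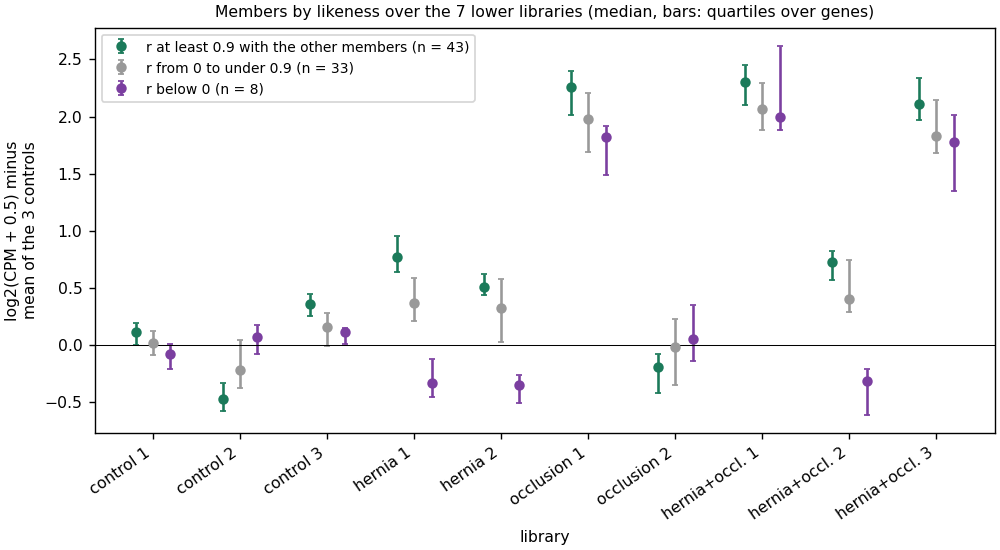
Median log2(CPM + 0.5) minus the control mean in each library for members with r of at least 0.9 with the other members over the 7 lower libraries (n = 43), from 0 to under 0.9 (n = 33) and below 0 (n = 8). Bars are quartiles over genes; the sets lie near 2 in the 3 high libraries and on opposite sides of 0 in the hernia libraries and hernia with occlusion 2.

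The same profile was also followed by genes outside the list, in number more than the 43 members at r of at least 0.9. Of 13295 tested genes that are not members, 76 (0.57%) had r of at least 0.9 with it over the 7 lower libraries. In 39 of these 76 (51.3%) each of the 3 high libraries also exceeded all 7 others, where this held for 10% of all non-members. Their median above the control mean was 0.76, 0.60 and 0.60 (log2) in occlusion 1 and hernia with occlusion 1 and 3, and 0.52, 0.32 and 0.43 in hernia 1, hernia 2 and hernia with occlusion 2. The opposite profile (r of at most -0.9) was found in 31 genes, and in 4 of these (12.9%) each of the 3 libraries lay below all 7 others, against 6.22% of all non-members. Likeness over the lower libraries did not use the 3 high ones. The profile, however, is that of members chosen by the same split of 3 against 7, and genes vary together. These shares are therefore a description, and no test was made.

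The comparisons of the study's own groups that hold occluded lungs use the libraries on which the members were chosen, so the following counts describe the choice and nothing is read from them. For occlusion averaged over hernia status, edgeR called 0 of 84 members higher (background 0%), with adjusted p from 0.213 to 0.297. All 84 had an unadjusted p under 0.05 (background 9.69%), and DESeq2 called 30 (background 1.69%). The median log2 change was 1.40 over the members and 0.00 over all genes tested. Without occlusion 2, edgeR called 72 members higher (background 4.37%), and with any other single library left out it called 0. The largest averaged change was that of ENSOCUG00000017424, at 2.46 ± 0.66 (SE, log2; edgeR adjusted p = 0.217, and 0.0315 to 0.540 over 16 alternatives).

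In lungs without a hernia, occlusion against control gave 0 members higher in edgeR (background 0.00747%), 39 at an unadjusted p under 0.05 (background 3.24%) and 0 in DESeq2 (background 0.0898%). The median log2 change was 1.43. Both occlusion libraries lay above all controls in 11 members (background 9.34%), the same 11 in which occlusion 2 did so. Without occlusion 1 the median change was -0.17, and without occlusion 2 it was 2.16. In lungs with a hernia, hernia with occlusion against hernia gave 0 members higher in edgeR (background 0%), 21 at an unadjusted p under 0.05 (background 10.5%) and 3 of 75 with an adjusted p in DESeq2 (background 4.17%). The median log2 change was 1.32, and 1.67 without hernia with occlusion 2. All 3 libraries with both operations lay above both hernia libraries in 32 members (background 20.4%).

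The 3 members called by DESeq2, named after their values were seen, were ENSOCUG00000002835, ENSOCUG00000010236 and ENSOCUG00000016538. ENSOCUG00000016538 stood at 39.2 and 31.4 CPM with a hernia and at 130.0, 44.9 and 96.1 CPM with both operations, so even hernia with occlusion 2 was above the hernia group. ENSOCUG00000010236 stood at 4.52 and 5.17 CPM with a hernia and at 32.9, 4.03 and 21.7 CPM with both, so hernia with occlusion 2 was below it. The groups of ENSOCUG00000010236 therefore overlap and those of ENSOCUG00000016538 do not.

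The interaction asks if the effect of occlusion depended on the hernia. For no member did it pass in edgeR (adjusted p from 0.722 to 0.997; background 0% in both directions), and 0 members had an unadjusted p under 0.05 (background 4.99% positive and 4.9% negative). DESeq2 called 0 members (background 0.262% and 0.232%). The median interaction was -0.15 (log2) over the members, with a median standard error of 0.94, and it was 1.44 without occlusion 1 and -0.90 without occlusion 2. Each group holds 2 or 3 libraries and each occluded group holds 1 that stood low. The rule selected genes with such a gap in both groups, which widens the error of this term, so nothing is read from the lack of calls.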

How the data were processed

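RNA was sequenced in 10 libraries, and the authors deposited 1 table of estimated counts for 13429 Ensembl genes. Although the file is named for CPM, it holds whole numbers whose totals differ between libraries, so no rounding was needed. Per the submitters' processing notes, kallisto 0.42.2.1, edgeR and OryCun2.0 were used, with no role given; the step from transcripts to whole gene counts is not given. Near-identical or overlapping genes may share counts.

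The members and lists were chosen with earlier results of these data known. CPM was computed from column totals. All 10 libraries entered 1 quasi-likelihood fit with a mean for each group in edgeR 4.0.16 (R 4.3.3, TMM scaling, at least 1 CPM in at least 2 libraries, 13379 genes, 6 residual degrees of freedom), and Benjamini-Hochberg adjusted p under 0.05 was called. DESeq2 1.42.0 and limma 3.58.1 were alternatives. The code of the fit and of the rule was run on simulated data with known changes. For the fit, changed genes were raised in every occluded library, unlike the members, so this checks the code only. A p-value here weighs a difference between groups only against the spread among libraries within groups, which may be technical. A standard error is the log2 change over the root of F. A log2 difference from control used log2(CPM + 0.5).

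None of the 13429 identifiers matched the reference table of 38822 genes, which is of another assembly, so the 25 fixed gene lists could not be applied. Named without symbols were the 5 members with the largest ratio, the 5 with the highest mean CPM, the 2 genes nearest the threshold on each side, and members called in hernia against control, of which there were 0.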

Additional observations from a re-analysis of the deposited data

How the results depend on the processing

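The number of members was 35 with a pseudocount of 5 CPM, 210 with a ratio of 1.5 and 5 with a ratio of 3. It was 93 and 72 with pseudocounts of 0.1 and 1 CPM, 82 with TMM-scaled CPM, 81 with DESeq2 size factors, and 84 and 82 under the 2 filters. Leaving out 1 library gave 85 to 122 members, always with all 84 among them; a rule over fewer libraries can only keep or add genes. Members called higher for averaged occlusion were 30 in DESeq2 and 0 to 72 when 1 library was left out, with 72 only without occlusion 2. For hernia with occlusion against hernia DESeq2 called 3 of 75 (4%, against 4.17% of all genes tested). All other alternatives of the 5 comparisons, limma-voom included, called 0 members. Hernia with occlusion 2 was the highest of the 7 in 29 to 50 members when 1 of the other 6 was left out, with 50 without hernia 1. The matching shares of all genes tested were not computed, so nothing is read from this range. The count of members above in every lower library with a hernia was 35 with TMM-scaled CPM. No share of all genes tested was computed for that scaling. When 1 of the 7 was left out the count was 38 to 58, against 6.37% to 14.3% of all genes tested. Both counts can only stay or rise when a library is left out in this way.

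Hernia against control changed sign for 3 named members, whose fitted change was at most 0.11 in size. ENSOCUG00000003792 had 0.021 with column totals in place of TMM and -0.56 to 0.40 (log2) when 1 library was left out. With the title stem as a random block in limma, ENSOCUG00000009932 had -0.0052 and ENSOCUG00000006050 had -0.0502. That fit had a negative correlation within a stem, -0.374, from only 2 pairs of libraries. For the same genes in that order, leaving out 1 library gave -0.11 to 0.29 and -0.075 to 0.25. The causes were not tested. No paired analysis was possible because replicate numbers were given in accession order and only 2 pairs of libraries share a title stem. A fit of only the groups compared, given above for hernia against control, was not run for averaged occlusion and the interaction, which use all groups.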
